A study of Mus musculus with 21 samples.

Results

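The 58 genes described here encode proteins that act in G2, mitosis, chromosome segregation and cytokinesis. They were taken by gene symbol from the count table of a mouse hematopoietic stem cell (HSC) study, and all 58 were found among its 21000 symbols. The rule uses their symbols alone, and the list was drawn up with earlier results of these data known.

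RNA sequencing was performed on HSCs sorted as CD150+CD48- cells of the LSK fraction (no lineage markers, Sca-1 and c-Kit present) from the bone marrow of wild type mice, with 3000 to 3500 cells in a library. The study had 21 libraries in 7 groups of 3, prepared in independent experiments. The mice were 10 weeks old when they received intraperitoneal PBS or 150 mg/kg 5-fluorouracil (5-FU), a cytotoxic drug that kills dividing blood cells and is followed by a phase in which HSCs leave quiescence. PBS was given once (PBS-1 d6) or 3 times at intervals of 21 days (PBS-3 d6), and HSCs were sorted 5 days after the last dose, which is day 6 when the dose is day 1. 5-FU was given on the same schedules, and HSCs were sorted at day 6 (5FU-1 d6 and 5FU-3 d6) or 20 days after it, at day 21 (5FU-1 d21 and 5FU-3 d21). The last group held HSCs of untreated mice aged 2 years (old). The study's methods give C57BL/6 as the strain and add the absence of Flt3 to the definition of HSCs in these mice, which the sample labels do not name. They also state that the sorting gate at day 6 after 5-FU was widened to c-Kit-dim cells and that the Mac-1 antibody was left out there, so the gate and the drug cannot be told apart at day 6. In bulk RNA, more cells in the cycle and more RNA of a gene per cell also cannot be told apart.

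A dividing cell copies its DNA in S phase, passes through G2, and separates the copies in mitosis. Cyclin B with the kinase CDK1 starts mitosis, the kinetochores tie the chromosomes to the spindle, and the spindle checkpoint holds back the anaphase promoting complex until every chromosome is tied. The genes for these proteins are largely silent in quiescent cells and are switched on together late in the cycle. Adult HSCs are known for being mostly quiescent.

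Total counts were between 22184885 and 38649033 per library, and every one of the 58 genes passed the filter on low counts in each comparison. Levels are given as CPM, counts scaled to the size of the library after TMM normalization over the 21 libraries. 1 library stood apart within its group. The 58 genes summed to 4132 CPM in PBS-3 d6 replicate 2, against 5251 and 5068 CPM in replicates 1 and 3. Several counts that rest on this library are given with and without it. The column names of PBS-1 d6 and 5FU-1 d6 carry a suffix that the other 15 libraries lack, and the sources used here do not explain it. Comparisons of 5-FU with PBS at day 6 stay within 1 kind of column name, while the day 21 comparisons after a single dose, that of the PBS groups and the test of the difference between schedules cross it. There, what the suffix stands for and the groups cannot be told apart. The schedules also differ in the time since the first dose, and so possibly in age at sorting. Neither can be told apart from the number of doses.

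The summed level of the 58 genes was highest at day 6 after 3 doses of 5-FU. It was 4682, 4741 and 4782 CPM in the libraries of PBS-1 d6, and 6347, 6407 and 6410 CPM in those of 5FU-1 d6. The sums of 5FU-3 d6 were 9766, 8494 and 9822 CPM, above those of every other library. At day 21 they were 3720, 4329 and 3864 CPM after a single dose and 4019, 4240 and 3487 CPM after 3 doses. The old HSCs gave 4450, 4657 and 5113 CPM, within the range of the PBS libraries. The lower end of that range was PBS-3 d6 replicate 2 (4132 CPM), and the sums of 4450 and 4657 CPM lay below every other PBS library. Gene by gene, the 3 libraries of 5FU-3 d6 lay above the other 18 for 53 of the 58 genes (91.4%), and for 3.76% of the 13571 genes compared over all libraries. Levels in 3 separate steps, with 5FU-3 d6 above 5FU-1 d6 and 5FU-1 d6 above the remaining 15 libraries, were found for 32 of the 58 genes (55.2%), and for 1.47% of all genes.

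**Figure D1:**
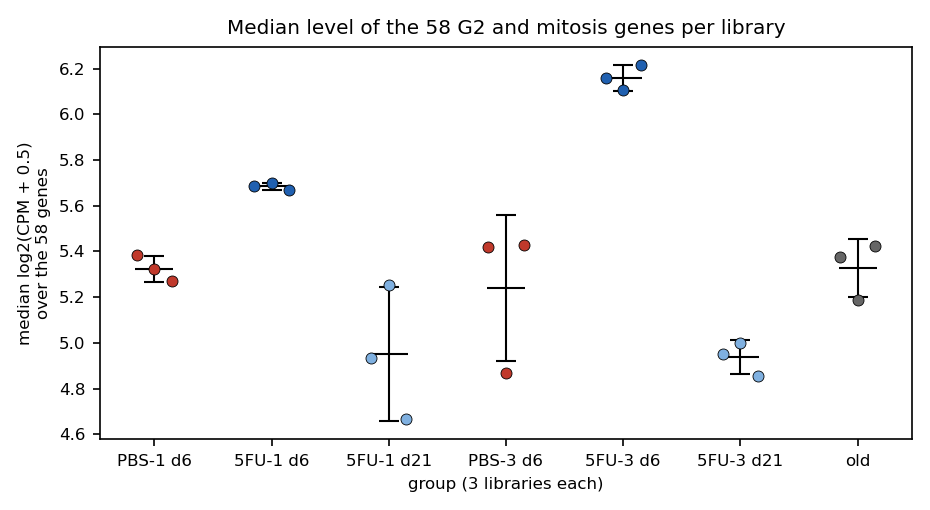
Each point is 1 library and gives the median of log2(CPM + 0.5) over the 58 genes, by group; the long line is the mean of 3 libraries and the bar its SD. The 5FU-3 d6 libraries lie highest, between 6.10 and 6.22, the 5FU-1 d6 libraries lie close together, and PBS-3 d6 replicate 2 lies at 4.87, below its group.

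**Figure D2:**
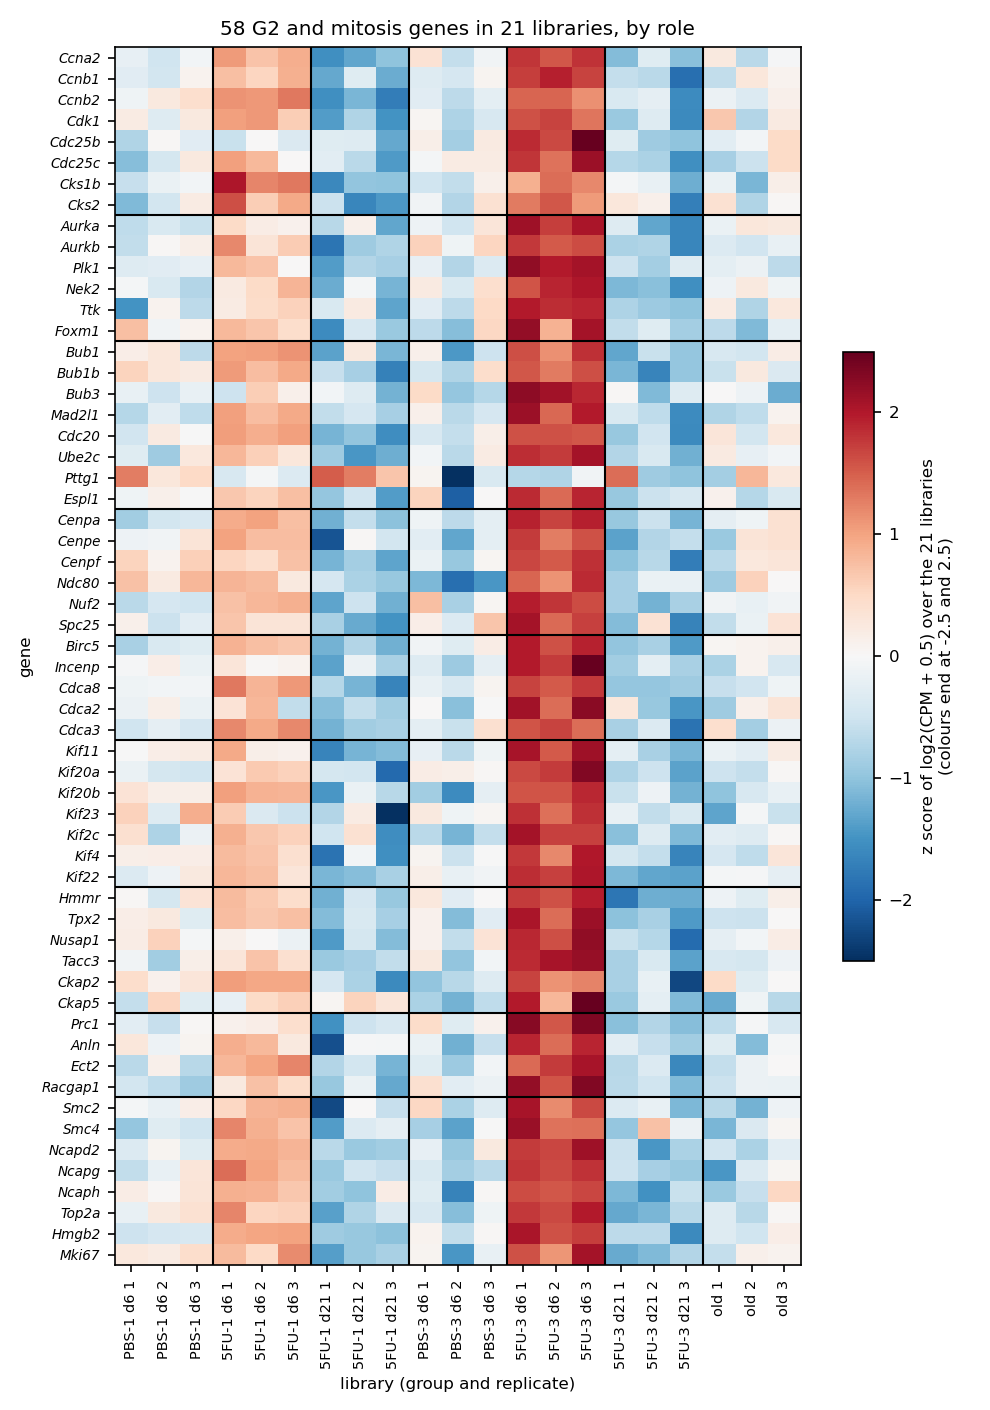
Rows are the 58 genes in the order of the text and columns the 21 libraries; the colour is the z score of log2(CPM + 0.5) over the 21 libraries. Nearly all rows are dark red in 5FU-3 d6 and blue at day 21; the row of Pttg1 departs from this order.

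The comparison of 5-FU with PBS at day 6 asked which of these genes differ in level between the sorted HSCs of treated and control mice. After a single dose, 30 of the 58 genes were higher and 0 were lower at an adjusted p under 0.05 in edgeR's quasi-likelihood test, while 11.5% of all 12759 genes tested were called higher and 10.6% lower. After 3 doses, 55 were higher and 0 were lower, against 9.84% and 8.30% of 12729 genes. The median log2 fold change of the 58 genes was 0.35 after a single dose and 0.91 after 3 doses, and that of all genes tested was −0.00056 and −0.012. The fold change was positive for 55 and for 58 genes. Scaling by library size alone left 25 and 53 genes called, while the split of all genes moved from 1470 higher and 1357 lower to 1127 and 1623 after a single dose, and from 1253 and 1057 to 807 and 1462 after 3. With the trend on transcript length and GC content removed, 31 and 56 of the 58 genes were called, and the splits of all genes were 1536 and 980, and 1733 and 854. Every 5-FU library lay above every PBS library for 44 genes after a single dose (23.3% of all genes) and for 57 after 3 doses (20.8%). The groups overlapped after a single dose for Cdc25b, Cdc25c, Foxm1, Bub3, Cenpf, Ndc80, Incenp, Cdca2, Kif11, Kif23, Nusap1, Ckap5 and Anln, and after 3 doses for Pttg1 alone, so for every other gene below the 5-FU libraries were separate from the PBS libraries. Without PBS-3 d6 replicate 2, 52 genes were called after 3 doses and the median was 0.79. Without 5FU-1 d6 replicate 2, the count after a single dose fell from 30 to 18.

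Markers of other blood cells were also compared at day 6. The summed level of 16 neutrophil and monocyte genes was 61.6 to 77.3 CPM in 5FU-1 d6 and 54.9 to 79.8 CPM in 5FU-3 d6, lower than the 95.5 to 159 CPM of the PBS libraries. That of 17 HSC genes was 4572 to 4677 CPM and 4233 to 4344 CPM after 5-FU, and 5796 to 6395 CPM after PBS. That of 3 multipotent progenitor genes was 216 to 316 CPM after 5-FU and 324 to 464 CPM after PBS, most of it from Cd34. Cd48, whose protein was sorted against, stood the other way, at 7.13 to 12.0 CPM after 5-FU and 2.26 to 4.78 CPM after PBS. The summed levels of erythroid genes (1160 to 1232 against 1334 to 1578 CPM) and megakaryocyte genes (113 to 185 against 202 to 246 CPM) were lower too. Most of the erythroid sum came from Car2 (1022 to 1088 against 1265 to 1507 CPM). The sums of B cell genes (35.5 to 44.5 against 38.6 to 52.8 CPM) and of T and NK cell genes (26.3 to 56.1 against 40.3 to 58.7 CPM) overlapped. Among defining markers, Cd3e and Pax5 were at 0 in every PBS and 5-FU library of day 6. Hemoglobin beta (Hbb-bs) stood against its list, at 39.4 to 46.7 CPM in 5FU-1 d6 and 16.0 to 20.9 CPM in 5FU-3 d6, and 4.61 to 7.49 CPM after PBS. Hbb-bt, of the same list, was also higher in every 5-FU library than in every PBS library. Epor and Tfrc were higher after 3 doses and overlapped after a single dose. Of the megakaryocyte list, Vwf was higher in every 5-FU library than in the PBS libraries of the same schedule. The part of other blood cells in the results was not tested.

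**Figure D3:**
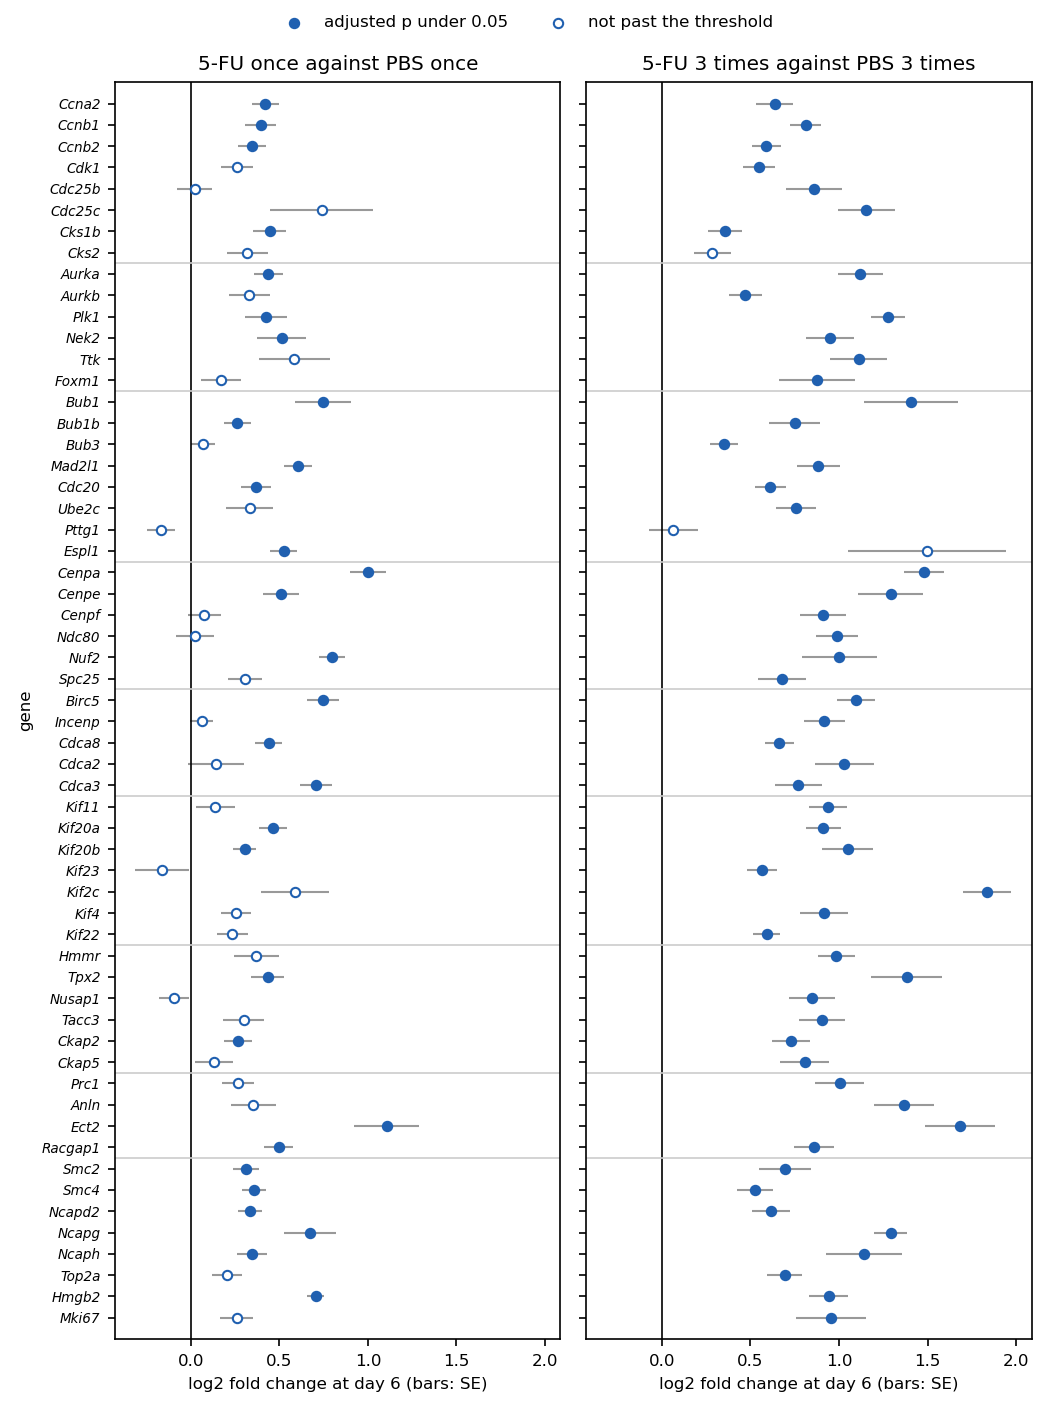
Log2 fold change of each gene at day 6, 5-FU against PBS, after a single dose (left) and 3 doses (right), with its SE as a bar; filled points passed an adjusted p of 0.05. The genes stand in the order of the text, with grey lines between roles. On the left 30 points are filled and on the right 55.

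Of the cyclins, CDK1 and its regulators, 4 of 8 genes rose after a single dose and 7 of 8 after 3 doses. Ccna2, cyclin A2 of S phase and G2, measured 40.6, 37.9 and 42.0 CPM after PBS and 55.6, 51.0 and 53.4 CPM after 5-FU on the single schedule, and 46.7, 37.0 and 41.8 CPM after PBS and 66.3, 62.7 and 66.8 CPM after 5-FU on the schedule of 3. No PBS library reached a 5-FU library, and the log2 fold changes (± SE, here and throughout, n = 3 against 3) were 0.42 ± 0.077 (adjusted p = 0.0108) and 0.64 ± 0.10 (adjusted p = 0.00864). Ccnb1, cyclin B1, went from 28.7, 27.2 and 31.8 to 38.4, 36.1 and 39.8 CPM after a single dose, and from 28.3, 27.5 and 31.6 to 50.5, 53.5 and 49.9 CPM after 3. It rose by 0.39 ± 0.088 (adjusted p = 0.0209) and 0.81 ± 0.086 (adjusted p = 0.0028). Ccnb2, the other B-type cyclin, measured 25.01, 27.2 and 28.3 against 33.4, 33.2 and 35.0 CPM, and 23.97, 21.96 and 24.2 against 36.1, 36.2 and 33.6 CPM. Its log2 fold changes were 0.35 ± 0.079 (adjusted p = 0.0224) and 0.59 ± 0.082 (adjusted p = 0.00567). Without 1 or another single library Ccnb1 and Ccnb2 missed the threshold after a single dose, with adjusted p-values of up to 0.0656 and 0.0703, and they passed it after 3 doses under all 14 alternatives. Their partner Cdk1 measured 21.9, 19.7 and 22.04 against 25.8, 26.1 and 23.8 CPM, and 21.2, 17.97 and 19.3 against 28.9, 29.5 and 27.5 CPM. The libraries did not overlap on either schedule, but only the change after 3 doses passed the threshold (0.26 ± 0.088, adjusted p = 0.0716 and 0.55 ± 0.091, adjusted p = 0.00953).

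Cdc25b and Cdc25c encode phosphatases that activate CDK1. Cdc25b measured 41.8, 51.6 and 47.4 CPM in PBS-1 d6 and 44.1, 51.3 and 46.4 CPM in 5FU-1 d6, which overlap, and 53.2, 40.9 and 54.1 CPM in PBS-3 d6 and 83.6, 78.9 and 107 CPM in 5FU-3 d6, which do not. The log2 fold changes were 0.021 ± 0.10 (adjusted p = 0.901) and 0.86 ± 0.16 (adjusted p = 0.0134). The former turned negative without 5FU-1 d6 replicate 2 or PBS-1 d6 replicate 1 and with scaling by library size alone. Cdc25c was the lowest of these genes, at 3.72 to 18.05 CPM in these 12 libraries, and rose after 3 doses (1.16 ± 0.16, adjusted p = 0.00583). Cks1b and Cks2 encode small CDK-binding proteins. Cks1b had log2 fold changes of 0.45 ± 0.093 (adjusted p = 0.0163) and 0.36 ± 0.095 (adjusted p = 0.0415), and Cks2 of 0.32 ± 0.11 (adjusted p = 0.0865) and 0.29 ± 0.10 (adjusted p = 0.106). Of the reads possible from Ccnb1, Cks2 and Cdc25c transcripts, 35.2%, 26.9% and 21.4% of stretches of 75 bases also occur in another gene, so their counts are uncertain.

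Among the mitotic kinases and FOXM1, 3 of 6 genes rose after a single dose and all 6 after 3. Plk1, the kinase of mitotic entry and spindle assembly, measured 16.4, 16.6 and 17.1 CPM after PBS and 24.5, 23.8 and 18.5 CPM after 5-FU on the single schedule, and 17.2, 14.2 and 16.4 CPM after PBS and 40.3, 37.3 and 38.4 CPM after 5-FU on the schedule of 3. The log2 fold changes were 0.42 ± 0.12 (adjusted p = 0.0437) and 1.28 ± 0.097 (adjusted p = 0.00139). Aurka, the spindle pole kinase, went from 42.4, 46.5 and 43.5 to 64.2, 57.7 and 56.0 CPM and from 51.1, 44.4 and 60.1 to 120.0, 103 and 116 CPM. The groups did not overlap, and the log2 fold changes were 0.44 ± 0.081 (adjusted p = 0.011) and 1.12 ± 0.13 (adjusted p = 0.00338). Aurkb, the catalytic subunit of the chromosomal passenger complex, measured 19.8, 23.4 and 24.1 against 31.4, 25.2 and 27.4 CPM and 26.8, 22.7 and 26.6 against 36.3, 34.3 and 35.2 CPM. It passed the threshold after 3 doses (0.47 ± 0.093, adjusted p = 0.0168) and not after a single dose (0.33 ± 0.12, adjusted p = 0.0817).

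Foxm1 encodes a transcription factor of G2 and mitosis genes. It measured 24.8, 19.5 and 20.5 CPM in PBS-1 d6 and 25.2, 24.4 and 22.6 CPM in 5FU-1 d6, with overlap, and 16.5, 14.6 and 23.2 CPM after PBS and 37.8, 25.7 and 36.4 CPM after 5-FU after 3 administrations, without. Its log2 fold changes were 0.17 ± 0.11 (adjusted p = 0.319) and 0.88 ± 0.21 (adjusted p = 0.0328), and the latter missed the threshold without any 1 of 4 libraries (PBS-3 d6 replicates 1 and 2, 5FU-3 d6 replicates 1 and 3), with adjusted p-values of up to 0.0986. Nek2, which acts in centrosome separation, rose by 0.51 ± 0.14 (adjusted p = 0.0375) and 0.95 ± 0.13 (adjusted p = 0.00604). Ttk, a kinase of the spindle checkpoint, had log2 fold changes of 0.58 ± 0.20 (adjusted p = 0.0771) and 1.11 ± 0.16 (adjusted p = 0.00662).

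The genes of the spindle checkpoint and of anaphase had 5 of 8 higher after a single dose and 6 of 8 after 3. Bub1, a checkpoint kinase, measured 47.0, 49.8 and 31.9 CPM after PBS and 69.7, 70.7 and 74.2 CPM after 5-FU, and 46.2, 21.8 and 33.9 CPM after PBS and 93.1, 74.8 and 103 CPM after 5-FU on the schedule of 3. The PBS libraries spread widely, and the log2 fold changes were 0.75 ± 0.16 (adjusted p = 0.0172) and 1.41 ± 0.26 (adjusted p = 0.0141). The former missed the threshold without 5FU-1 d6 replicate 2 or 3 (adjusted p of 0.0502 and 0.0513), and the latter without 5FU-3 d6 replicate 3 (adjusted p = 0.0501). Mad2l1, the checkpoint protein MAD2, went from 52.1, 59.2 and 53.2 to 85.5, 79.2 and 83.6 CPM and from 66.1, 52.7 and 56.6 to 117, 96.0 and 112 CPM. It rose by 0.61 ± 0.077 (adjusted p = 0.00357) and 0.88 ± 0.12 (adjusted p = 0.00535). Cdc20, the activator of the anaphase promoting complex, measured 27.1, 31.9 and 30.2 against 38.5, 37.3 and 38.3 CPM and 27.6, 26.4 and 31.2 against 43.7, 43.8 and 43.3 CPM. Its 12 libraries fell into separate ranges by treatment on each schedule, and the log2 fold changes were 0.37 ± 0.083 (adjusted p = 0.021) and 0.61 ± 0.089 (adjusted p = 0.00643).

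Espl1 and Pttg1 encode separase, which cuts the rings that hold sister chromatids together, and securin, which blocks it. Espl1 measured 49.2, 55.6 and 51.6 CPM in PBS-1 d6 and 74.9, 70.1 and 77.8 CPM in 5FU-1 d6, and rose (0.52 ± 0.078, adjusted p = 0.00556). On the schedule of 3 it measured 70.6, 17.2 and 52.4 CPM after PBS and 141, 111 and 144 CPM after 5-FU. The groups did not overlap, but PBS-3 d6 replicate 2 was far below the other PBS libraries and the change missed the threshold (1.498 ± 0.45, adjusted p = 0.059), which it passed without that library (1.10 ± 0.18, adjusted p = 0.0186) and without replicate 1 (1.92 ± 0.45, adjusted p = 0.0475). Pttg1 measured 61.8, 54.3 and 55.9 CPM in PBS-1 d6 and 49.7, 52.0 and 50.1 CPM in 5FU-1 d6, and 52.8, 37.2 and 49.9 CPM after PBS and 47.7, 47.5 and 51.7 CPM after 5-FU after 3 administrations. It was the only one of the 58 genes with every 5-FU library below every PBS library after a single dose (−0.17 ± 0.078, adjusted p = 0.162), and the groups overlapped after 3 doses (0.066 ± 0.14, adjusted p = 0.776). Bub3, Bub1b and Ube2c, 2 checkpoint proteins and the ubiquitin-conjugating enzyme of the anaphase promoting complex, had log2 fold changes of 0.067 ± 0.068 (adjusted p = 0.514), 0.26 ± 0.077 (adjusted p = 0.0479) and 0.33 ± 0.13 (adjusted p = 0.115) after a single dose. After 3 doses they rose by 0.35 ± 0.079 (adjusted p = 0.0246), 0.75 ± 0.14 (adjusted p = 0.0151) and 0.76 ± 0.11 (adjusted p = 0.00678).

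At the centromere and kinetochore, 3 of 6 genes rose after a single dose and all 6 after 3. Cenpa, the histone variant that marks centromeres, measured 118, 144 and 147 CPM after PBS and 274, 285 and 252 CPM after 5-FU, and 168, 130.1 and 158 CPM after PBS and 439.7, 392.1 and 444 CPM after 5-FU on the schedule of 3. The changes of 1.00 ± 0.099 (adjusted p = 0.0017) and 1.48 ± 0.11 (adjusted p = 0.00139) were among the 5 largest of the 58 genes on each schedule. Nuf2 and Ndc80 encode a pair of subunits of the same complex, which binds microtubules, yet their values differed. Nuf2 measured 33.0, 36.8 and 35.6 against 58.7, 60.8 and 62.3 CPM and 58.9, 31.3 and 44.5 against 96.2, 90.04 and 84.3 CPM, and rose on both schedules (0.80 ± 0.074, adjusted p = 0.00138 and 1.00 ± 0.21, adjusted p = 0.0204). Ndc80 measured 15.03, 13.4 and 15.4 against 15.5, 15.2 and 13.5 CPM, which overlap, and 9.78, 8.17 and 9.03 against 17.7, 16.5 and 19.5 CPM, which do not. Its log2 fold changes were 0.023 ± 0.11 (adjusted p = 0.899) and 0.99 ± 0.12 (adjusted p = 0.00384). The sign of the former turned without 5FU-1 d6 replicate 1 or PBS-1 d6 replicate 2 and with scaling by library size alone. Spc25, another subunit, had log2 fold changes of 0.31 ± 0.096 (adjusted p = 0.0601) and 0.68 ± 0.14 (adjusted p = 0.0175). Cenpe, a kinetochore motor, rose by 0.51 ± 0.10 (adjusted p = 0.0153) and 1.29 ± 0.19 (adjusted p = 0.0062), and Cenpf, a large kinetochore protein, had log2 fold changes of 0.077 ± 0.093 (adjusted p = 0.589) and 0.91 ± 0.13 (adjusted p = 0.00591).

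The chromosomal passenger complex corrects faulty attachments and guides cytokinesis. Birc5, its subunit survivin, measured 43.0, 50.8 and 52.5 CPM after PBS and 84.3, 80.6 and 78.3 CPM after 5-FU, and 57.3, 52.7 and 64.3 CPM after PBS and 132, 113 and 129 CPM after 5-FU on the schedule of 3. It rose by 0.75 ± 0.092 (adjusted p = 0.00326) and 1.10 ± 0.11 (adjusted p = 0.00259). Cdca8, the subunit borealin, rose by 0.44 ± 0.077 (adjusted p = 0.00925) and 0.66 ± 0.082 (adjusted p = 0.00422). Incenp, the scaffold of the complex, measured 123, 129 and 119 against 133, 125 and 126 CPM after a single dose, with overlap, and 114, 99.2 and 117 against 200.3, 189 and 238 CPM after 3, without. The log2 fold changes were 0.063 ± 0.065 (adjusted p = 0.523) and 0.92 ± 0.11 (adjusted p = 0.00422). Cdca3, a cell cycle protein, rose by 0.71 ± 0.09 (adjusted p = 0.00354) and 0.77 ± 0.13 (adjusted p = 0.0103), and Cdca2, which carries a phosphatase to chromatin, by 1.03 ± 0.17 (adjusted p = 0.00873) after 3 doses.

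Of the kinesins, the motors that move along microtubules, 2 of 7 rose after a single dose and all 7 after 3. Kif2c, which takes down microtubules at centromeres, measured 55.0, 31.1 and 42.2 CPM after PBS and 69.6, 62.5 and 59.7 CPM after 5-FU, and 32.7, 25.7 and 33.8 CPM after PBS and 124, 103 and 103 CPM after 5-FU on the schedule of 3. Its change after 3 doses (1.84 ± 0.14, adjusted p = 0.00137) was the largest of the 58 genes, and after a single dose it missed the threshold (0.59 ± 0.19, adjusted p = 0.0661). Kif11, the motor that pushes spindle poles apart, measured 32.0, 33.7 and 34.0 against 42.4, 33.5 and 33.2 CPM and 30.2, 26.3 and 31.1 against 58.4, 50.3 and 59.5 CPM. It overlapped after a single dose (0.14 ± 0.11, adjusted p = 0.395) and not after 3 (0.94 ± 0.11, adjusted p = 0.00336). Kif20a and Kif20b, motors of the late spindle and cytokinesis, rose by 0.46 ± 0.078 (adjusted p = 0.00813) and 0.30 ± 0.066 (adjusted p = 0.0194) after a single dose, and by 0.91 ± 0.10 (adjusted p = 0.00306) and 1.05 ± 0.15 (adjusted p = 0.00562) after 3. Exons of Kif20a overlap those of Cdc23 on the other strand over 29.3% of their length, so reads of both genes may be mixed. Kif23, Kif4 and Kif22, further mitotic motors, passed the threshold after 3 doses, with log2 fold changes of 0.56 to 0.91, and not after a single dose, with −0.16 to 0.26.

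Of the spindle assembly genes, 2 of 6 rose after a single dose and all 6 after 3. Tpx2, which activates Aurora A on the spindle, measured 279, 290.4 and 229.8 CPM after PBS and 364, 347 and 359.9 CPM after 5-FU, and 274, 165 and 231 CPM after PBS and 626, 475 and 649 CPM after 5-FU on the schedule of 3. The log2 fold changes were 0.43 ± 0.092 (adjusted p = 0.0175) and 1.38 ± 0.20 (adjusted p = 0.00664). Nusap1, which bundles spindle microtubules, measured 83.9, 94.4 and 78.2 against 82.4, 79.8 and 76.1 CPM after a single dose and 82.1, 65.9 and 88.0 against 141, 129 and 156 CPM after 3. It had log2 fold changes of −0.095 ± 0.086 (adjusted p = 0.461) and 0.85 ± 0.13 (adjusted p = 0.00753). Ckap2, a spindle protein, passed the threshold narrowly after a single dose (0.27 ± 0.079, adjusted p = 0.0499) and under none of the 14 alternatives. Hmmr, Tacc3 and Ckap5, which also act on spindle microtubules, rose after 3 doses by 0.99 ± 0.11 (adjusted p = 0.00283), 0.90 ± 0.13 (adjusted p = 0.00623) and 0.81 ± 0.14 (adjusted p = 0.0103).

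For cytokinesis, Ect2, the activator of the contractile ring, measured 51.2, 79.4 and 50.7 CPM after PBS and 116, 127 and 143 CPM after 5-FU, and 63.0, 45.3 and 71.3 CPM after PBS and 160.0, 193 and 227 CPM after 5-FU on the schedule of 3. Its change of 1.11 ± 0.18 (adjusted p = 0.00754) was the largest of the 58 genes after a single dose, and that after 3 doses was 1.68 ± 0.20 (adjusted p = 0.00357). Racgap1, its partner at the central spindle, rose by 0.50 ± 0.081 (adjusted p = 0.00721) and 0.86 ± 0.11 (adjusted p = 0.00511). Anln and Prc1, of the contractile ring and the central spindle, passed the threshold after 3 doses (1.37 ± 0.17, adjusted p = 0.00422 and 1.00 ± 0.14, adjusted p = 0.00562) and not after a single dose (0.35 ± 0.13, adjusted p = 0.0878 and 0.27 ± 0.092, adjusted p = 0.0771).

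Of the condensin and chromatin genes, 6 of 8 rose after a single dose and all 8 after 3. Hmgb2, a chromatin protein of dividing cells, had the highest level of the 58 genes per kilobase of transcript (459 CPM per kb, mean of 21 libraries), and measured 952, 987 and 992 CPM after PBS and 1553, 1591 and 1600 CPM after 5-FU. On the schedule of 3 it measured 1173, 922 and 1151 CPM after PBS and 2267, 1947 and 2045 CPM after 5-FU. It rose by 0.71 ± 0.048 (adjusted p = 0.000597) and 0.94 ± 0.11 (adjusted p = 0.0035), and 20.8% of its stretches of 75 bases occur in other genes too. Top2a, the topoisomerase that untangles sister chromatids, measured 68.7, 74.9 and 77.2 against 92.0, 79.9 and 80.6 CPM and 65.6, 57.0 and 69.8 against 103, 101 and 108 CPM. The groups did not overlap, and only the change after 3 doses passed the threshold (0.20 ± 0.085, adjusted p = 0.127 and 0.69 ± 0.098, adjusted p = 0.00586). Mki67, the proliferation marker Ki-67 that coats mitotic chromosomes, measured 73.6, 72.3 and 77.9 against 87.0, 79.5 and 99.0 CPM and 69.0, 42.5 and 63.6 against 112, 96.3 and 132 CPM. Its log2 fold changes were 0.26 ± 0.095 (adjusted p = 0.0922) and 0.96 ± 0.20 (adjusted p = 0.0199), and the latter missed the threshold without 5FU-3 d6 replicate 3 (adjusted p = 0.0658). The condensin subunits Smc2, Smc4, Ncapd2, Ncapg and Ncaph rose on both schedules, by 0.31 to 0.67 after a single dose and by 0.53 to 1.29 after 3.

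Of the 30 genes called, 12 were called under each of 14 alternatives, namely Ccna2, Mad2l1, Cenpa, Nuf2, Birc5, Cdca8, Cdca3, Kif20a, Ect2, Racgap1, Smc4 and Hmgb2. Of the 55 called after 3 doses, 44 were. The other 11 were Cks1b and Bub3, lost without any 1 of 5 libraries (adjusted p up to 0.117 and 0.0752), Foxm1, Nuf2 and Smc2, lost without any 1 of 4 (up to 0.0986 for Foxm1, 0.0637 for Nuf2 and 0.0674 for Smc2), and Aurkb, Bub1b, Spc25, Bub1, Smc4 and Mki67, lost without 1 or 2. Cks1b was also lost with library size alone, the looser filter and the replicate block (up to 0.157), and Bub3 with the first and last of these. Leaving out 1 library at a time gave 18 to 27 calls after a single dose and 45 to 52 after 3.

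The test of the difference asked whether the 5-FU effect at day 6 was larger after 3 doses than after a single dose, over 12 libraries. 6 of the 58 genes passed the threshold, all with a larger effect after 3 doses, against 0.340% of 13227 genes called in that direction. They were Plk1, Cenpf, Ndc80, Incenp, Kif11 and Nusap1. The difference was 0.98 ± 0.15 (adjusted p = 0.017) on the log2 scale for Ndc80, 0.95 ± 0.16 (adjusted p = 0.0247) for Nusap1 and 0.87 ± 0.13 (adjusted p = 0.017) for Incenp. For Plk1 it was 0.86 ± 0.15 (adjusted p = 0.0319), for Cenpf 0.85 ± 0.16 (adjusted p = 0.0453) and for Kif11 0.81 ± 0.16 (adjusted p = 0.0453). 5 of these genes, all but Plk1, did not pass the threshold after a single dose. The median difference over the 58 genes was 0.50, with 56 positive values and 43 with an unadjusted p under 0.05, while over all genes the median was −0.00033 and 14.8% had such a p. The 2 negative values were those of Cks1b (−0.077 ± 0.12, adjusted p = 0.822) and Cks2 (−0.021 ± 0.14, adjusted p = 0.967).

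The PBS groups of Ndc80 did not overlap either, with 3 administrations against 1 at −0.69 ± 0.12 (adjusted p = 0.128), which missed the threshold. In CPM, every PBS-3 d6 library also lay below every PBS-1 d6 library for Cenpf, Kif11 (26.3 to 31.1 against 32.0 to 34.0) and Incenp (99.2 to 117 against 119 to 129). The PBS groups of Plk1 and Nusap1 overlapped. The share of all genes with PBS groups apart in this way is not given here, so these separations are a description only. The part of the PBS levels in the difference was not tested. Cenpf measured 32.0, 27.6 and 32.5 CPM in PBS-1 d6, 31.9, 30.6 and 33.8 CPM in 5FU-1 d6, 25.5, 19.8 and 27.3 CPM in PBS-3 d6 and 45.5, 43.6 and 48.0 CPM in 5FU-3 d6. The number of genes called here depended on single libraries. It was 1 without PBS-1 d6 replicate 1, and 2 without 5FU-1 d6 replicate 2 or 5FU-3 d6 replicate 1 or 3. It was 3 without 5FU-1 d6 replicate 3, PBS-1 d6 replicate 3 or PBS-3 d6 replicate 1, and 10 without 5FU-3 d6 replicate 2. It was 4 without PBS-3 d6 replicate 2. Incenp was called under each of 20 alternatives and Ndc80 under all but 1, while DESeq2 called 27 of the 58 genes, against 384 of all 13227 genes in that direction.

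**Figure D4:**
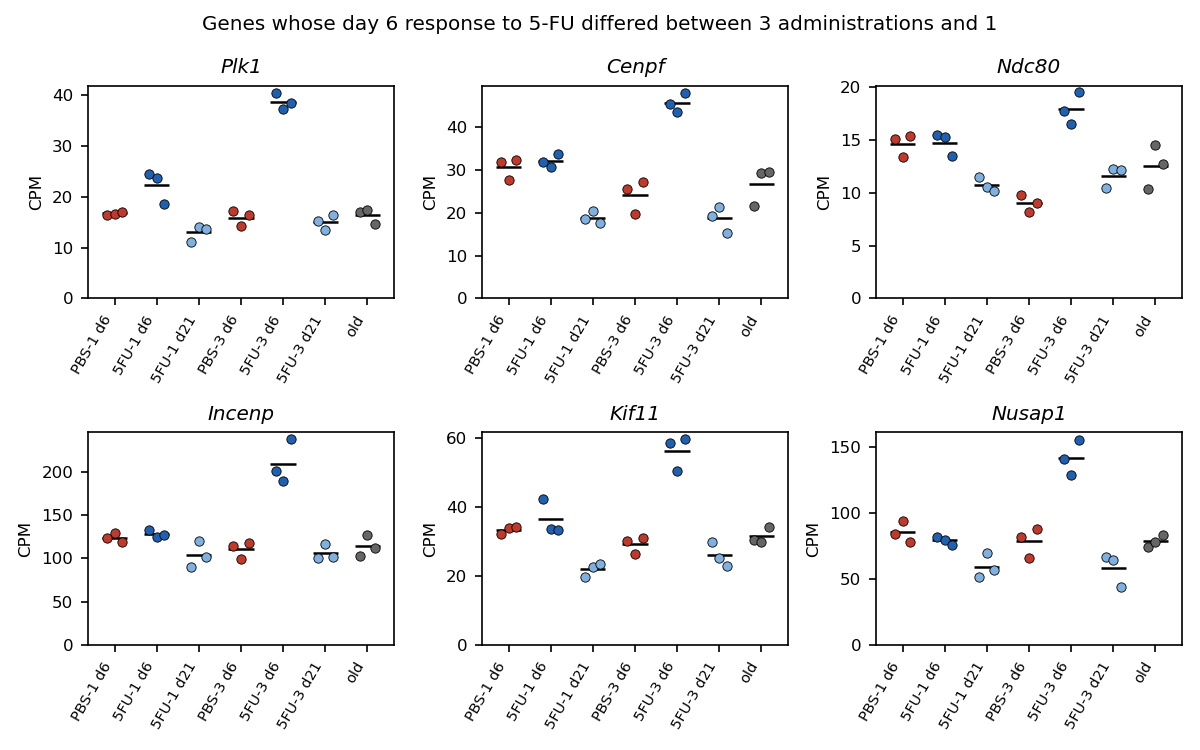
CPM of the 6 genes whose 5-FU effect at day 6 differed between schedules, by group; points are libraries and lines group means, and the axes start at 0. In each panel the 5FU-3 d6 libraries lie above all other libraries; in 5 panels, all but that of Plk1, 5FU-1 d6 overlaps with PBS-1 d6.

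The next comparison asked how the levels of these genes at day 21 stood against those at day 6. Against day 6 after the same number of doses, 45 were lower and 0 higher after a single dose, and 56 were lower and 0 higher after 3. Of 12589 and 12553 genes tested, 13.7% and 10.8% were called lower and 12.3% and 8.68% higher. The median log2 fold changes were −0.71 and −1.16. These comparisons share the day 6 libraries with those above. By the study's methods, the sorting gate was widened at day 6 only. The gate and the time after 5-FU therefore cannot be told apart here. Ect2 fell most on both schedules, from 116, 127 and 143 to 49.5, 57.7 and 39.2 CPM after a single dose and from 160.0, 193 and 227 to 50.9, 61.5 and 30.8 CPM after 3. Its log2 fold changes were −1.42 ± 0.15 (adjusted p = 0.00167) and −2.02 ± 0.26 (adjusted p = 0.00319). Cenpa was also among the 5 largest falls on both, with 101, 134 and 109 CPM at day 21 after a single dose and 114, 138 and 103 CPM after 3 (−1.25 ± 0.12, adjusted p = 0.00131 and −1.86 ± 0.13, adjusted p = 0.000546). After a single dose the 5 largest falls also included Espl1, at 30.8, 40.3 and 24.5 CPM on day 21 (−1.23 ± 0.17, adjusted p = 0.0039). Bub1 was at 22.8, 48.7 and 25.3 CPM (−1.16 ± 0.27, adjusted p = 0.0213) and Nuf2 at 25.4, 35.1 and 26.6 CPM (−1.07 ± 0.13, adjusted p = 0.00248). These genes had no day 21 library as high as a day 6 library. After 3 doses the 5 largest falls included Cdc25c, from 15.2, 12.4 and 18.05 to 4.44, 4.29 and 2.89 CPM (−1.98 ± 0.23, adjusted p = 0.00214). Kif2c was at 27.2, 38.7 and 26.5 CPM on day 21 (−1.85 ± 0.17, adjusted p = 0.00115) and Espl1 at 31.2, 39.1 and 41.8 CPM (−1.84 ± 0.15, adjusted p = 0.000871), again with no overlap. Cks2 and Pttg1 were not called after 3 doses, with −0.35 ± 0.14 (adjusted p = 0.122) and 0.072 ± 0.14 (adjusted p = 0.75).

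Set against PBS at day 6, most fold changes at day 21 were negative, and 0 of the 58 genes passed the threshold in edgeR. After a single dose 55 of the 58 fold changes were negative, with a median of −0.31 against −0.013 over all genes, and 26 had an unadjusted p under 0.05 (13.3% of all genes). Every day 21 library lay below all PBS libraries for 28 genes, and for 10.8% of all genes. Only 0.150% of 12647 genes were called lower. The adjusted p was lowest for Cenpf (−0.70 ± 0.11, adjusted p = 0.0655), Mki67 (−0.62 ± 0.098, adjusted p = 0.0657) and Kif11 (−0.60 ± 0.096, adjusted p = 0.0667). Mki67 measured 43.3, 49.9 and 52.2 CPM at day 21, and DESeq2 called 13 of the 58 genes lower in this comparison, and 2.57% of all genes. After 3 doses 51 fold changes were negative, with a median of −0.25 against 0.00079 over all genes, 17 had an unadjusted p under 0.05 (13.7% of all genes), and 16 genes lay below all PBS libraries (10.7% of all genes), while 0.00792% of 12632 genes were called lower. The lowest adjusted p was that of Hmmr (−0.81 ± 0.14, adjusted p = 0.0975), and DESeq2 called 7 genes lower, and 366 of all 12632 genes. Without PBS-3 d6 replicate 2 the median after 3 doses was −0.36, with 0 genes called and 27 at an unadjusted p under 0.05 (11.2% of all genes). Without it 38 genes lay below all PBS libraries, as did 15.5% of 13571 genes. PBS libraries were taken at day 6 only, so time after injection and treatment cannot be told apart in these comparisons.

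Age and repeated PBS were compared last. In old HSCs against PBS-3 d6, 0 were called (0.996% of 12847 genes), 3 had an unadjusted p under 0.05 (11.2% of all genes), DESeq2 called 0 (4.43%), and the median was 0.032 (−0.051 without PBS-3 d6 replicate 2). Old HSCs measured 55.8, 70.5 and 69.7 CPM of Mki67 and 66.6, 61.6 and 71.9 CPM of Top2a, in the range of the 6 PBS libraries. PBS-3 d6 replicate 2 was the lowest of these (42.5 and 57.0 CPM). Without it, 55.8 CPM of Mki67 and 61.6 CPM of Top2a lay below the PBS libraries. In PBS-3 d6 against PBS-1 d6, 0 were called by edgeR (0.0156% of 12806 genes), 7 had an unadjusted p under 0.05 (12.8% of all genes), DESeq2 called 2 (4.27%), and the median was −0.034 (0.029 without PBS-3 d6 replicate 2).

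The genes were also compared with each other across the 21 libraries. The median Pearson correlation of log2 CPM over the 1653 pairs of genes was 0.84, and 1599 pairs were positive, a description that the groups themselves shape. Against the mean of the other genes, each gene had r between 0.74 and 0.98 except Pttg1 with −0.21. The highest level of Pttg1 was in 5FU-1 d21 replicate 1 (63.6 CPM) and the lowest in PBS-3 d6 replicate 2 (37.2 CPM).

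Promoter sequences were searched for elements the genes may have in common. The cell cycle genes homology region (CHR) and the CCAAT box are known elements of G2 and mitosis promoters, bound by the MuvB-based complexes and by NF-Y, and E2F sites are typical of S phase promoters. RefSeq promoter windows (GRCm38.p6) of 300 bases, 250 before and 50 from the start site on, were found for 49 of the 58 genes. Both strands were searched for TTTGAA or TTCGAA (CHR), CCAAT, and TTCCCGC or TTGGCGC (E2F). A CHR match was present in 38 of 49 genes (77.6%), against 21.7% of all 27025 genes with a window and 16.8% of the other 10248 genes tested after 3 doses. CCAAT was present in 38 (77.6%), against 41.1% and 43.6%, and both together in 34 (69.4%), against 9.65% and 8.35%. The E2F letters were in 7 (14.3%), against 7.79% and 14.0%. TTGGCGC and the reverse of CCAAT can share letters, which was so for 3 of the 8 E2F matches in these windows, and 1 of the 56 CHR matches shared letters with a CCAAT match. Bub3, Prc1 and Ect2 have 2 overlapping windows each, and a site in both is counted in each. The E2F site of Ect2 is such a site. The 963 other genes that rose after 3 doses held CHR in 23.8%, CCAAT in 48.1%, both in 13.3% and E2F in 25.2%.

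The position of the matches was also recorded. Sites in overlapping windows of a gene are counted in each window. Of the 56 CHR matches in the 52 windows of these genes, 38 (67.9%) began within 50 bases of the start site, against 25.2% of the 7260 matches in all windows, and 16 began in the first 25 bases after it. Of the 95 CCAAT matches, 60 (63.2%) began in the 100 bases before the start and 5 at or after it, against 43.6% and 10.2% of the 17707 matches in all windows. Genes with and without the CHR letters were also set side by side. After a single dose 19 of 38 genes with CHR and 7 of 11 without were called, with median log2 fold changes of 0.33 and 0.39, and after 3 doses 37 of 38 and 9 of 11, with 0.88 and 0.90.

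**Figure D5:**
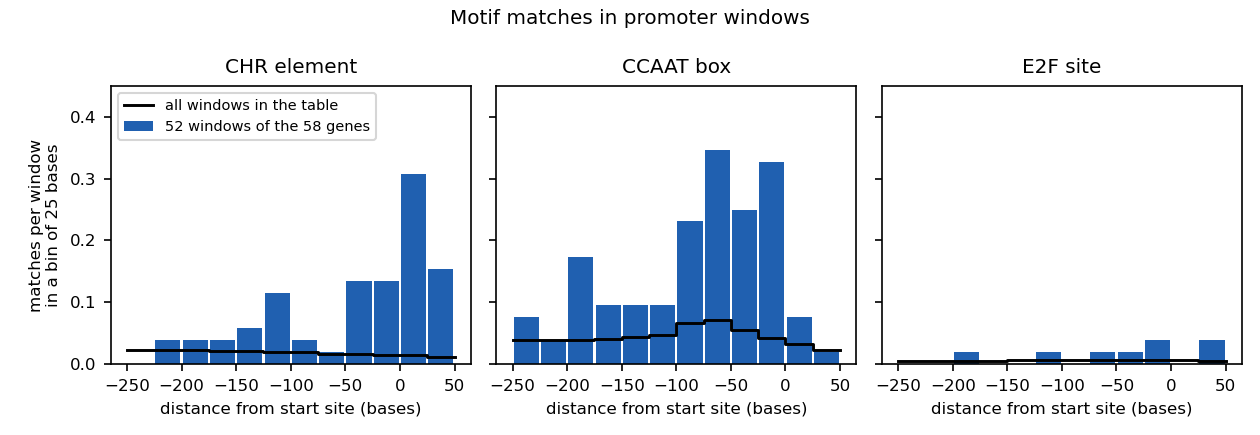
Matches per window in bins of 25 bases, by distance of the first base of the match from the start site, for the 52 windows of the 58 genes (bars) and for all 32851 windows (line). The CHR bars are tallest in the first 25 bases after the start, with 16 matches, and the CCAAT bars in the 100 bases before it; the E2F bars are low.

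The windows of the genes whose response differed between schedules are shown, except that of Incenp, with Ccnb2 as a cyclin that rose on both and Pttg1, the gene that followed neither. Sequences run 5′ to 3′ on the strand of the gene, in lower case, with CHR and CCAAT matches on either strand in capitals (TTCAAA and ATTGG are their reverse).
Plk1: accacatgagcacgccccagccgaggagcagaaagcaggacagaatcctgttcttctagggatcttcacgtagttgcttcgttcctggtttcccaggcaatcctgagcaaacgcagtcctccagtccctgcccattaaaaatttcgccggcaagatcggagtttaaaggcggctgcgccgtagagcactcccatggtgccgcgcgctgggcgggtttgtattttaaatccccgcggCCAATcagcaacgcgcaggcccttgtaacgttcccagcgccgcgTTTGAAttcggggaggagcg
Cenpf: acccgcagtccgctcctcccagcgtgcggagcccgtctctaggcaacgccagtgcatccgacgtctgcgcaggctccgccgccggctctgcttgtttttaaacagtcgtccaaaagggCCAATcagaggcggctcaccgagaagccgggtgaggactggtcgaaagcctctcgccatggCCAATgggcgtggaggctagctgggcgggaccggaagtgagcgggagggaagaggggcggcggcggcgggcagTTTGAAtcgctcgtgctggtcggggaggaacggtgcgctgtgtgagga
Ndc80: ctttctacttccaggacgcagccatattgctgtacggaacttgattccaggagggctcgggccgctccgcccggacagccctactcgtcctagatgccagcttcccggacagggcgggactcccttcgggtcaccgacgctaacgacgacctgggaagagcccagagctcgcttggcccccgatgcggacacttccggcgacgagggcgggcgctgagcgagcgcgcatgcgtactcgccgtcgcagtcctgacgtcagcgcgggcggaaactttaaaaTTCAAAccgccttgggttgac
Kif11: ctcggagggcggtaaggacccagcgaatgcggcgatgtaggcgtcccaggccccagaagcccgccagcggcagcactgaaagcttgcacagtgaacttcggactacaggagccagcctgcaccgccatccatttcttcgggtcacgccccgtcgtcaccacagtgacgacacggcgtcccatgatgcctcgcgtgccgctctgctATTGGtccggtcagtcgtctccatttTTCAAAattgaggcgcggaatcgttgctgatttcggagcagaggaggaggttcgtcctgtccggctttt
Nusap1: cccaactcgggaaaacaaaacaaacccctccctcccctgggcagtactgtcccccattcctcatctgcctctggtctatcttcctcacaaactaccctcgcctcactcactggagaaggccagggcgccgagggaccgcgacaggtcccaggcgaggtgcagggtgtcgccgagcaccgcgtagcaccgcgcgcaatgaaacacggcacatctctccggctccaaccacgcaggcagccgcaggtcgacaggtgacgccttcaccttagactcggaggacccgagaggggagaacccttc
Ccnb2: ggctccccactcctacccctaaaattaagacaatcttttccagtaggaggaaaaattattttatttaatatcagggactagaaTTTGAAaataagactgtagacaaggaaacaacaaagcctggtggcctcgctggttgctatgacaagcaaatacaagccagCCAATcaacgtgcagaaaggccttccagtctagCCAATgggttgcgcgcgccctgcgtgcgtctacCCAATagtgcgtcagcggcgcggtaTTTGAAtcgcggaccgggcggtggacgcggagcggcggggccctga
Pttg1: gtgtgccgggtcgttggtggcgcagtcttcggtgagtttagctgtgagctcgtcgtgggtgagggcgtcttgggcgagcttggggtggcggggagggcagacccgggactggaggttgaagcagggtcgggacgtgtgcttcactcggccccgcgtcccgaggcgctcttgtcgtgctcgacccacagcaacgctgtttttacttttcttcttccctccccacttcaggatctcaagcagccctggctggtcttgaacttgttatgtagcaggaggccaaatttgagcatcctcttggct

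Plk1 (chr7:122159185-122159484, plus strand), Cenpf (chr1:189688037-189688336, minus strand) and Kif11 (chr19:37376132-37376431, plus strand) hold a CHR match near the start and CCAAT matches upstream of it. Ndc80 (chr17:71526808-71527107, minus strand) holds CHR alone, and Ccnb2 (chr9:70421505-70421804, minus strand) holds 2 CHR and 3 CCAAT matches. Nusap1 (chr2:119618048-119618347, plus strand) and Pttg1 (chr11:43425932-43426231, minus strand) hold none of the letters searched, as did Mad2l1, Nuf2, Birc5 and Tacc3. Of these 6 genes, all but Pttg1 rose after 3 doses. The Pttg1 window lies wholly inside the annotated gene (chr11:43420250-43426251), as do those of Kif2c, Cdca8, Cdca3 and Kif4. Sequence before the outermost annotated start of these genes was not searched, so the empty window of Pttg1 does not show that its promoter lacks the elements. The window of Mad2l1 (chr6:66534971-66535270, plus strand) ends before the annotated gene begins, at 66535390. Sequence at that start was not searched, so the same limit holds for Mad2l1.

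Other genes of G2 and mitosis, 108 in 6 lists, were measured beside them. After a single dose 27 were higher and 3 lower, with a median log2 fold change of 0.15, and after 3 doses 57 were higher and 0 lower, with 0.47. The counts below stand beside 11.5% and 9.84% of all genes called higher. The kinetochore list had 10 of 30 higher and 1 lower after a single dose and 15 higher after 3, led by Ska1 (1.46 ± 0.10, adjusted p = 0.00125) and Knl1 (1.21 ± 0.14, adjusted p = 0.00338), which tie kinetochores to microtubules. Of 29 spindle and centrosome genes 5 were higher and 1 lower after a single dose and 19 were higher after 3, with the kinesins Kif14 (1.35 ± 0.28, adjusted p = 0.0197) and Kifc1 (1.32 ± 0.22, adjusted p = 0.00956) among the 3 largest. Of 13 genes of the CDK1 switch 5 and 10 were higher, with Mastl, the kinase that restrains the opposing phosphatase, at 1.33 ± 0.20 (adjusted p = 0.00701) after 3 doses. The 3 condensin subunits outside the 58 genes had 2 and 3 higher, led by Ncapg2 (1.15 ± 0.18, adjusted p = 0.00843). The list of the anaphase promoting complex held its subunits, which are present throughout the cycle, and its partners Fzr1, Fbxo5 and Ube2s. It had 3 and 5 of 17 genes higher, and cohesin with its regulators 2 (with 1 lower) and 5 of 16. The counts of both after a single dose are close to the share of all genes. The cohesin list was led after 3 doses by Sgo2a (1.26 ± 0.20, adjusted p = 0.00808), a protector of centromeric cohesion.

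S phase genes gave a comparison for the order of the cycle. Of 61, 42 rose after a single dose and 46 after 3, with median log2 fold changes of 0.42 and 0.63. Ccne1, cyclin E1 of the G1/S transition, rose by 1.56 ± 0.21 (adjusted p = 0.00428) after a single dose and 1.58 ± 0.20 (adjusted p = 0.00464) after 3. The 5-FU effect did not pass the threshold for a difference between schedules for any of the 61 (11 had an unadjusted p under 0.05, against 14.8% of all genes), with a median difference of 0.20, against 0.50 for the 58 genes. Whether the lists differ was not tested.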

How the data were processed

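RNA sequencing had been performed on 21 libraries of sorted mouse HSCs, 3 in each of 7 groups taken from the sample labels. Libraries were made with SMART-Seq v4 and Nextera XT kits, and the submitters' processing notes name TopHat2 (2.0.13), Cuffdiff, Cufflinks (2.2.1) and the mm10 build. The authors deposited whole-number counts per gene symbol, without normalization, and how these counts were made is not given in the sources used here. A protocol without strand cannot separate overlapping genes on opposite strands. Every column of the table belonged to a library of the series.

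Each comparison was fitted on its own libraries in edgeR (4.0.16, R 4.3.3) by the quasi-likelihood test, with genes kept by filterByExpr, TMM normalization and Benjamini-Hochberg adjustment over all genes kept (threshold 0.05). The difference between schedules was an interaction term over 4 groups. The SE is the log2 fold change over the square root of F. The test was checked on simulated counts. Alternatives were RLE factors, library size alone, DESeq2 (1.42.0), a looser filter (at least 1 count) and a stricter one (at least 10 counts in every library), a replicate block, 1 fit over 21 libraries, the other PBS group as control, and leaving out each library in turn. Removal of a trend on transcript length and GC content was added after the data were seen. Replicates were independent experiments. Total counts of 22184885 to 38649033 per library set the counting precision, and libraries of the same group differed by 16.8 to 37.2 times the variance of counting alone, so no pair was a repeat of 1 library.

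The 58 genes and the other lists, blood cell markers included, were chosen with earlier results of these data known. Every member could be named, with values by library for 16 genes set beforehand by function and for the 5 called genes of largest log2 fold change in a comparison. All members called in the test of the difference were named, and up to 3 called genes of each other list.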

Additional observations from a re-analysis of the deposited data

Results flagged for a closer look

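The response to 5-FU at day 6 differed between 3 administrations and 1 in 6 of the 58 genes, by the interaction term of edgeR's quasi-likelihood fit over 12 libraries. The log2 fold change was larger after 3 administrations by 0.86 for Plk1 (adjusted p = 0.0319), 0.85 for Cenpf (adjusted p = 0.0453) and 0.98 for Ndc80 (adjusted p = 0.0170). For Incenp it was larger by 0.87 (adjusted p = 0.0170), for Kif11 by 0.81 (adjusted p = 0.0453) and for Nusap1 by 0.95 (adjusted p = 0.0247). The 2 schedules also differ in the suffix of their column names and in the time since the first administration, and so possibly in age. None of these can be told apart from the number of administrations.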

How the results depend on the processing

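After 3 doses of 5-FU at day 6, between 45 and 56 of the 58 genes were called under all alternatives run, and after a single dose between 18 and 33. The day 21 comparisons with PBS depended on the tool. DESeq2 called 13 of the 58 genes after a single dose, 7 after 3 doses, 2 between the PBS groups and 27 for the difference between schedules. A single fit over 21 libraries called 7, 5 and 1 in the first 3 of these, and scaling by library size alone called 4 in the first. The cause was not tested.

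Over all genes, DESeq2 called 725 and 592 genes at day 21 against PBS after a single dose and 3 doses, 569 in old HSCs, 547 between the PBS groups and 715 for the difference. The single fit called 300 and 193 at day 21 and 19 between the PBS groups. Library size alone called 83 and 15 at day 21. With the length and GC trend removed 94 were called at day 21 after a single dose and 1 between the PBS groups. After 3 doses RLE factors gave 3 and the stricter filter 23. PBS-3 d6 as control gave 5 genes at day 21 after a single dose, and PBS-1 d6 as control 242 in old HSCs.

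Same-numbered replicates did not deviate together (r between −0.044 and 0.055), so the numbers were not taken as pairs. With the replicate block, 24 and 54 of the 58 genes were called at day 6 after a single dose and 3 doses, 43 and 54 at day 21 against day 6, and 5 for the difference. Over all genes the block called 1509 after 3 doses at day 6, 3 and 0 at day 21 against PBS, 30 in old HSCs, 0 between the PBS groups and 55 for the difference.

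Library size alone gave a median log2 fold change of 0.30 for the 58 genes at day 6 after a single dose and −1.05 at day 21 against day 6 after 3 doses, where it moved the median of all genes by 0.11. It turned Cdc25b (−0.027) and Ndc80 (−0.024) after a single dose and Pttg1 (−0.035) after 3. Ckap5 at day 21 against day 6 after a single dose turned to 0.0054 with RLE factors, 0.0054 with DESeq2 and 0.032 with the length and GC trend removed. That removal also turned Cks1b (0.12) and Cks2 (0.21) for the difference, and the median of the 58 genes in old HSCs (−0.00024). With PBS-1 d6 as control, the old HSCs gave a median of −0.028, with Ndc80 at −0.21 and Kif2c at −0.037.

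Leaving out each library in turn gave 1563 to 1947 genes after a single dose and 1231 to 1582 after 3 at day 6, 1 to 32 and 1 to 4 at day 21 against PBS, and 1736 to 2978 and 1351 to 1744 at day 21 against day 6. It gave 20 to 76 in old HSCs, 0 to 1 between the PBS groups and 38 to 170 for the difference. Of the 58 genes it left 18 to 27 and 45 to 52 called at day 6, 33 to 46 and 52 to 54 at day 21 against day 6, and 1 to 10 for the difference. Their medians were 0.33 to 0.39 and 0.79 to 0.95 at day 6, −0.41 to −0.27 and −0.36 to −0.17 at day 21 against PBS, −0.78 to −0.64 and −1.22 to −1.04 against day 6, −0.051 to 0.10 in old HSCs, −0.11 to 0.029 between the PBS groups and 0.43 to 0.60 for the difference. Single genes that changed sign ranged from −0.054 to 0.092 (Cdc25b), −0.038 to 0.084 (Ndc80) and −0.012 to 0.31 (Cdca2) after a single dose, and from −0.074 to 0.16 (Pttg1) after 3. At day 21 against day 6, Ckap5 ranged from −0.086 to 0.029 after a single dose and Pttg1 from −0.092 to 0.15 after 3. For the difference, Cks2 ranged from −0.085 to 0.043 and Cdca3 from −0.023 to 0.21.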

Other observations

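Regulators of cell cycle transcription, 18 genes of the DREAM and MuvB-MYBL2 complexes and the E2F family, were also measured. After a single dose 6 were higher and 2 lower at day 6, and after 3 doses 8 were higher and 2 lower. Of all genes 11.5% and 9.84% were higher and 10.6% and 8.30% lower, so the lower calls are near the share of all genes. Mybl2, the partner of MuvB in dividing cells, rose by 0.91 ± 0.16 (adjusted p = 0.00983) after a single dose and 1.25 ± 0.087 (adjusted p = 0.00125) after 3 in edgeR's quasi-likelihood test. E2f7, a repressor of late S phase, rose by 1.09 ± 0.17 (adjusted p = 0.00616) and 1.48 ± 0.20 (adjusted p = 0.00531). Rbl2, the pocket protein p130 of quiescent cells, fell (−0.52 ± 0.086, adjusted p = 0.00754 and −0.47 ± 0.10, adjusted p = 0.0235). By day 21 against day 6, Rbl2 was higher (0.78 ± 0.079, adjusted p = 0.00147 and 0.56 ± 0.11, adjusted p = 0.0148) and Mybl2 lower (−1.08 ± 0.11, adjusted p = 0.00131 and −1.46 ± 0.11, adjusted p = 0.000556).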
